A study of Mus musculus with 8 samples.

Results

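The repressor gene Rest and 9 genes of its corepressor complexes (Rcor1, Rcor2, Rcor3, Sin3a, Sin3b, Hdac1, Hdac2, Kdm1a and Ehmt2) were followed in RNA-seq libraries of the mouse utricle, a gravity-sensing organ of the inner ear. The 10 genes were matched by symbol in the authors' table of normalized counts. They make up 10 of the 48823 gene identifiers counted, and all 10 had enough reads to be tested. The 8 libraries came from C57BL/6 embryos of age E15.5. Of these, 4 were from embryos with the genotype Rest(+/deltaExon4), in which 1 allele of Rest lacks exon 4 (their titles call them KO), and 4 were from wild-type embryos. The labels of wild-type replicate 4 give the strain as C57BL/7 and the age as E15.6. Neither group received a treatment. Each library is a pool of whole utricles from 7 to 9 mice, so hair cells, supporting cells and other cells were measured together. Fewer cells of one type and less RNA per cell cannot be told apart in such pools.

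REST is a zinc finger protein that binds a DNA element called RE1 and keeps neuronal genes silent in other cells. It does so through partners. Its amino end recruits SIN3 proteins, which carry histone deacetylases, and its carboxyl end recruits RCOR1 (CoREST), which brings the deacetylases HDAC1 and HDAC2 and the histone demethylase KDM1A (LSD1). EHMT2 (G9a), a methyltransferase of histone H3, is a further partner. In neurons and in hair cells an alternative exon of Rest is spliced in, which yields a truncated protein that represses poorly. The study asked what the loss of that exon does to gene expression in the inner ear.

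Rest lies on the plus strand of chromosome 5 (chr5:77265491-77286432, GRCm38). GENCODE lists 2 transcripts, each with 4 exons, and the alternative exon is in neither of them: the annotated exon with the number 4 is the last one, 5730 bases long. The study's exon is known to lie in the intron of 5385 bases between annotated exon 3 and that last exon. The annotated join is shown because it is where the alternative exon interrupts the message. Lower case letters are the whole of exon 3 (chr5:77275234-77275317) and capitals are the first 60 bases of the last exon (chr5:77280703-77280762), both protein coding, from GENCODE's transcript sequences.
Rest exon 3 and last exon: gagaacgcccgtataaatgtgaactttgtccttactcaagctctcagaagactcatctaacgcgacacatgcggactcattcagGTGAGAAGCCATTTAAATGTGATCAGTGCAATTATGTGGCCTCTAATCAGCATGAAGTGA
The deposited counts are totals per gene. Which Rest exons were read is not in them, so the genotype label cannot be checked with the targeted exon.

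The left part of RE1, the element that REST reads, is shown where its letters (TTCAGCACC, in capitals) occur in promoters of 2 textbook targets, the granule protein gene Scg2 and the cadherin gene Celsr3.
Scg2 promoter: ggccgtTTCAGCACCggacagctcctcggc
Celsr3 promoter: gctccgTTCAGCACCgtgggcagcacttct
The first is at chr1:79440019-79440048 and the second at chr9:108825912-108825941, both read on the plus strand (RefSeq promoter windows, GRCm38.p6). These letters, searched on both strands, occur in 122 of 32851 promoter windows of 300 bases (0.371%). The windows hold 16 of the 25 textbook targets examined, and 3 of them contain the letters. Windows were found for 8 of the 10 genes described here (10 windows), and 0 of them contain the letters. The exact letters of the right part of RE1 occur in 45 of all windows (0.137%), in 0 of those 10 and in 0 of the 16 targets. The core of both parts together was found in 0 of the 10 and 0 of the 16, and in 12 of all windows (0.0365%). Only exact letters were counted, so a part that differs by a letter, as after the left part in Scg2, was missed. These counts thus do not show that a window lacks RE1.

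**Figure D1:**
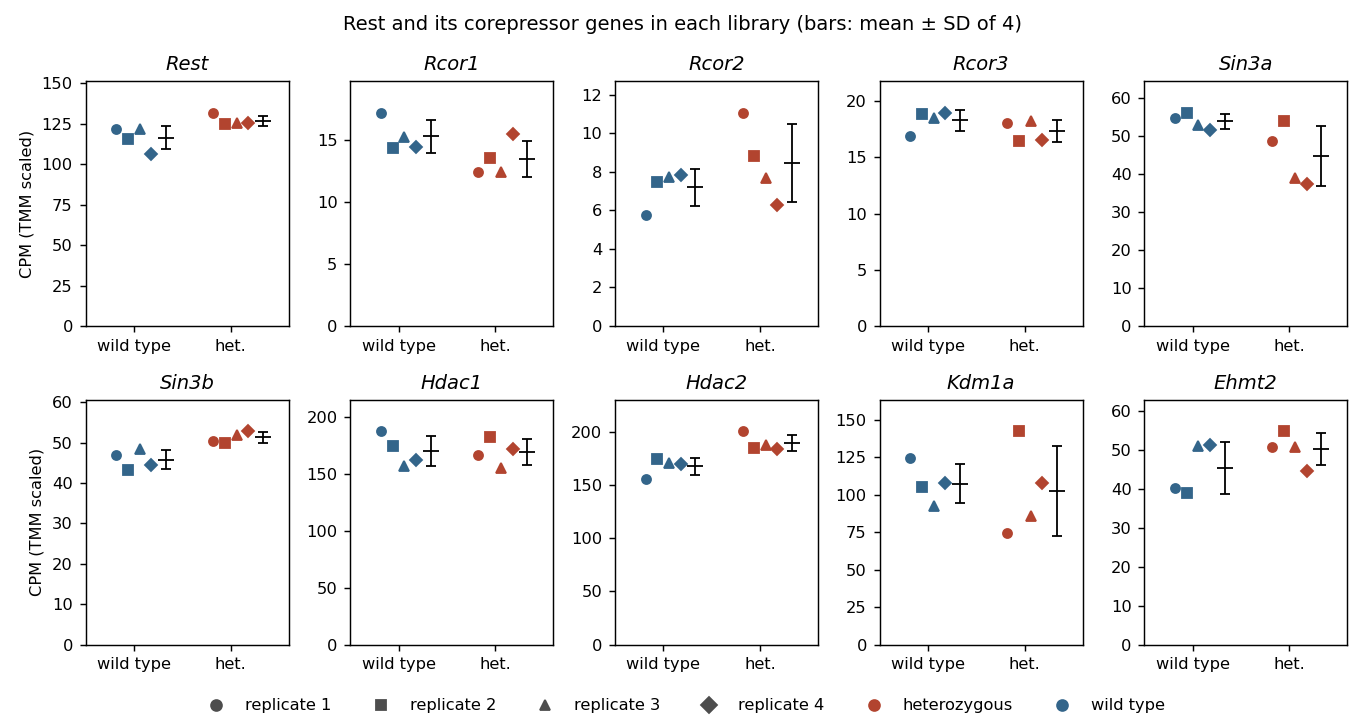
CPM (read pairs on the gene relative to all read pairs on genes in the library, scaled to a fixed total with TMM factors) of Rest and the 9 corepressor genes in each of the 8 libraries, with the wild-type libraries on the left and the heterozygous ones on the right of each panel. Bars are mean ± SD over 4 libraries. The groups do not overlap for Rest, Sin3b and Hdac2, and the heterozygous libraries spread most for Kdm1a.

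None of the 10 genes passed the threshold in the heterozygous utricles (adjusted p under 0.05 by edgeR's quasi-likelihood test over 16990 genes). Of all genes tested 1.17% passed. Rest, Sin3b and Hdac2 were slightly higher in the heterozygous libraries on the main scale, by 1.09 to 1.13 times, and Sin3a was lower, at 0.830 times the wild-type mean. DESeq2 also called 0 of the 10. At an unadjusted p under 0.05 edgeR counted 3 of them, Sin3a as lower (beside 7.92% of all genes tested) and Sin3b and Hdac2 as higher (beside 5.46%). DESeq2 counted the same number without adjustment, beside 13.2% of its genes. The median size of the log2 change was 0.16 over the 10 genes and 0.15 over all genes tested.

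Rest was measured at 132, 125, 126 and 126 CPM in heterozygous replicates 1 to 4 and at 122, 116, 122 and 106 CPM in wild-type replicates 1 to 4. The 4 heterozygous libraries were all above the 4 wild-type ones, and wild-type replicate 4 was the lowest. The log2 change was 0.12 ± 0.07 (SE), with a 95% interval from -0.02 to 0.27 (edgeR adjusted p = 0.456). The exact two-sided permutation p was 0.0286, the smallest that 4 against 4 libraries can give. In folds the interval runs from 0.983 to 1.21, and without scaling factors it runs from 0.942 to 1.19. The separation of the groups rested on the use of scaling factors. Without TMM factors, which adjust each library's total for a few highly expressed genes, the ratio was 1.06 and the exact permutation p was 0.229. Wild-type replicate 4, the library with the differing strain and age labels, also had an erythroid marker sum far above the others. Without it the log2 change of Rest was 0.08 (edgeR adjusted p = 0.687).

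The CoREST genes were the least abundant of the set. Rcor1 (chr12:111039351-111115901), the founding member, had 12.4, 13.6 and 12.4 CPM in heterozygous replicates 1 to 3 and 17.2, 14.4, 15.3 and 14.5 CPM in the wild-type libraries. The groups overlapped, since heterozygous replicate 4 was above 3 of the 4 wild-type libraries. The group means were 13.5 ± 1.45 and 15.3 ± 1.32 CPM (SD, 4 libraries a group). Its log2 change was -0.18 ± 0.12 (SE, 95% interval -0.45 to 0.08, edgeR adjusted p = 0.529).

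Rcor2 (chr19:7267325-7275225), a family member expressed in stem cells and the developing nervous system, had 11.1, 8.84, 7.68 and 6.26 CPM against 5.78, 7.48, 7.72 and 7.86 CPM. Heterozygous replicates 1 and 2 were above all wild-type libraries and replicates 3 and 4 were among them. Its interval was the widest of the set, from -0.19 to 0.65 around a log2 change of 0.23 (edgeR adjusted p = 0.629), at 136 to 258 read pairs per library. The change was 0.08 without heterozygous replicate 1, 0.15 without wild-type replicate 1 and 0.36 without heterozygous replicate 4. Rcor3 (chr1:192098546-192138062), which can take the place of RCOR1 beside KDM1A, varied little, at 18.1, 16.5, 18.2 and 16.5 CPM against 16.9, 18.9, 18.5 and 19.0 CPM. Its groups overlapped too (log2 change -0.08, 95% interval -0.29 to 0.13, edgeR adjusted p = 0.766).

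KDM1A removes methyl groups from histone H3 in the CoREST complex. Its gene (chr4:136550540-136602723) had 74.3, 142, 85.9 and 107 CPM in the heterozygous and 124, 105, 92.3 and 108 CPM in the wild-type libraries. The spread among the heterozygous libraries was the largest of the set, with a coefficient of variation of 29.2% against 12.2% in wild type, and replicates 1 and 2 lay at its ends. The log2 change was -0.07 with a 95% interval from -0.46 to 0.32 (edgeR adjusted p = 0.901), and it became 0.06, 0.0093 and 0.02 without heterozygous replicate 1, heterozygous replicate 3 or wild-type replicate 1, and -0.25 without heterozygous replicate 2.

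SIN3A and SIN3B are scaffold proteins that hold the deacetylases. Sin3a (chr9:57072040-57128366) was at 48.7, 53.9, 38.9 and 37.4 CPM in the heterozygous and at 54.8, 56.1, 53.0 and 51.7 CPM in the wild-type libraries. The wild-type libraries were close to each other. Heterozygous replicates 3 and 4 were well below them, replicate 1 slightly below, and replicate 2 among them. The log2 change was -0.27 ± 0.12 (SE, 95% interval -0.52 to -0.02, unadjusted p = 0.0391, edgeR adjusted p = 0.3496), and it was -0.21 without heterozygous replicate 3 and -0.19 without replicate 4.

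Sin3b (chr8:72723285-72758201) was at 50.5, 49.9, 52.0 and 52.8 CPM against 46.9, 43.2, 48.5 and 44.5 CPM. Its groups did not overlap and the heterozygous libraries were the higher ones. The log2 change was 0.16 ± 0.07 (SE, 95% interval 0.0089 to 0.32, edgeR adjusted p = 0.353, exact two-sided permutation p = 0.0286). Without TMM factors that p was 0.143 for Sin3b, while for Sin3a it went from 0.0857 to 0.0286.

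HDAC1 and HDAC2 remove acetyl groups from histones in both complexes. Hdac1 (chr4:129516104-129542713) was at 166, 183, 155 and 172 CPM in the heterozygous and at 187, 174, 157 and 162 CPM in the wild-type libraries. The groups overlapped over nearly their whole range, and the log2 change was -0.0099 with a 95% interval from -0.19 to 0.17 (edgeR adjusted p = 0.972). In folds the interval runs from 0.879 to 1.12, and the sign of the change turned in 5 of 15 alternative fits.

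Hdac2 (chr10:36974544-37001889) was at 200.7, 185, 188 and 184 CPM in the heterozygous libraries. In the wild-type libraries it was at 156, 175, 171 and 170.4 CPM, all lower. Its log2 change of 0.17 ± 0.07 (SE, 95% interval 0.03 to 0.32) had the smallest adjusted p of the set, 0.309 by edgeR and 0.165 by DESeq2. The exact two-sided permutation p was 0.0286 with TMM factors and 0.114 without them.

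Ehmt2 (chr17:34898469-34914052) was at 50.7, 54.7, 50.7 and 44.6 CPM in the heterozygous and at 40.2, 38.8, 50.9 and 51.2 CPM in the wild-type libraries. Wild-type replicates 1 and 2 were below all others, and replicates 3 and 4 were among the heterozygous values. The log2 change was 0.15 (95% interval -0.10 to 0.39, edgeR adjusted p = 0.594).

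**Figure D2:**
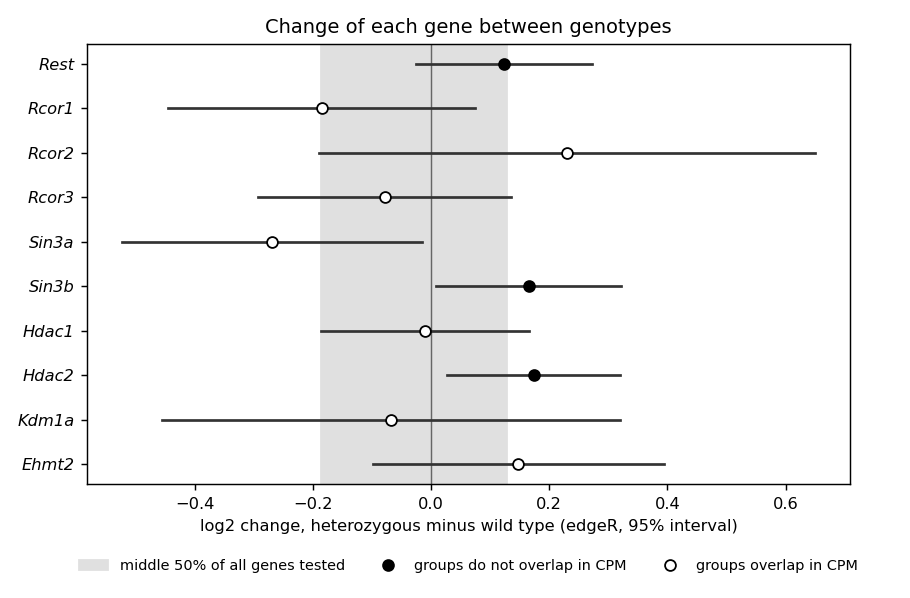
Log2 change (heterozygous minus wild type) of each gene on the x axis, with its 95% interval from edgeR; filled points are genes whose groups do not overlap in CPM. The grey band is the middle 50% of all genes tested, from -0.19 to 0.13. The points lie between -0.27 for Sin3a and 0.23 for Rcor2.

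In all, the groups did not overlap for 3 of the 10 genes (Rest, Sin3b and Hdac2, all higher in heterozygous libraries), beside 7.88% of all genes tested and 2.98% in that direction. On CPM without TMM factors this held for 1 of the 10, Sin3a, which was lower, beside 8.15% of all genes. Which of these genes separated the genotypes thus depended on whether scaling factors were used. The authors' normalized counts are the same reads on another scaling, without wild-type replicate 4, so they are no separate support. In them the groups did not overlap for Rest, Sin3b and Hdac2. Their exact two-sided permutation p there was 0.0286 each, the smallest that 35 assignments allow. The share of all genes on that scale was not computed. With and without TMM factors all 10 genes had the same direction. In the DESeq2 fit the log2 change of Hdac1 turned to 0.0016, while edgeR with RLE size factors gave -0.0034. Their directions were mixed, with 5 negative and 5 positive values.

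Ratios of 2 related genes within a library do not depend on how libraries are scaled, so 5 of them were compared. The ratio of Sin3a to Sin3b read counts was 0.964, 1.08, 0.749 and 0.709 in heterozygous replicates 1 to 4. In the wild-type libraries it was 1.17, 1.30, 1.09 and 1.16. All 4 heterozygous ratios were below all 4 wild-type ones, with replicate 2 just below the lowest of them. The mean log2 ratio was -0.21 ± 0.29 in heterozygous and 0.24 ± 0.10 in wild-type libraries (SD over 4 libraries). The exact permutation test, two-sided, gave p = 0.0286, as low as the design allows. The p adjusted over the 5 ratios was 0.143. The difference of -0.45 is a 0.731-fold ratio, and it ranged from -0.56 to -0.36 when single libraries were left out. Per length of exon Sin3a made up 54.0% ± 4.96 of the SIN3 messages in heterozygous and 61.7% ± 1.67 in wild-type libraries (SD, n = 4 each).

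The other 4 ratios overlapped between genotypes. Hdac1 to Hdac2 was 0.828, 0.987, 0.826 and 0.933 against 1.20, 0.998, 0.920 and 0.951 (exact permutation p = 0.171, adjusted p = 0.333). The highest wild-type ratio was that of replicate 1, and the others lay among or just above the heterozygous values. Rcor1 to Rcor2 was 1.12, 1.53, 1.62 and 2.48 against 2.98, 1.93, 1.97 and 1.84 (exact permutation p = 0.286, adjusted p = 0.357). Heterozygous replicate 4 alone lay among the wild-type libraries. Without it the exact permutation p of Rcor1 to Rcor2, Rcor2 to Rcor3 and Sin3a to Sin3b was 0.0286 each, and each adjusted p was 0.0476, with log2 differences of -0.60, 0.40 and -0.36. For Rcor1 to Rcor2 and for Rcor2 to Rcor3 that library was the only heterozygous one that overlapped. These p were thus fixed by the choice and support nothing. The exact permutation p of Sin3a to Sin3b was the same with all libraries, at an adjusted p of 0.143. Its lower adjusted p here comes from the fixed p of the other ratios and supports nothing either. Without heterozygous replicate 1 or wild-type replicate 1 the Rcor1 to Rcor2 difference was -0.22 and -0.24 (exact permutation p = 0.514 and 0.486, adjusted p = 0.643 and 0.607). With all libraries the log2 differences were -0.40 for Rcor1 to Rcor2, -0.11 for Rcor1 to Rcor3 and 0.29 for Rcor2 to Rcor3. The exact permutation p was 0.486 for Rcor1 to Rcor3 and 0.2 for Rcor2 to Rcor3, and the adjusted p was 0.486 and 0.333.

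**Figure D3:**
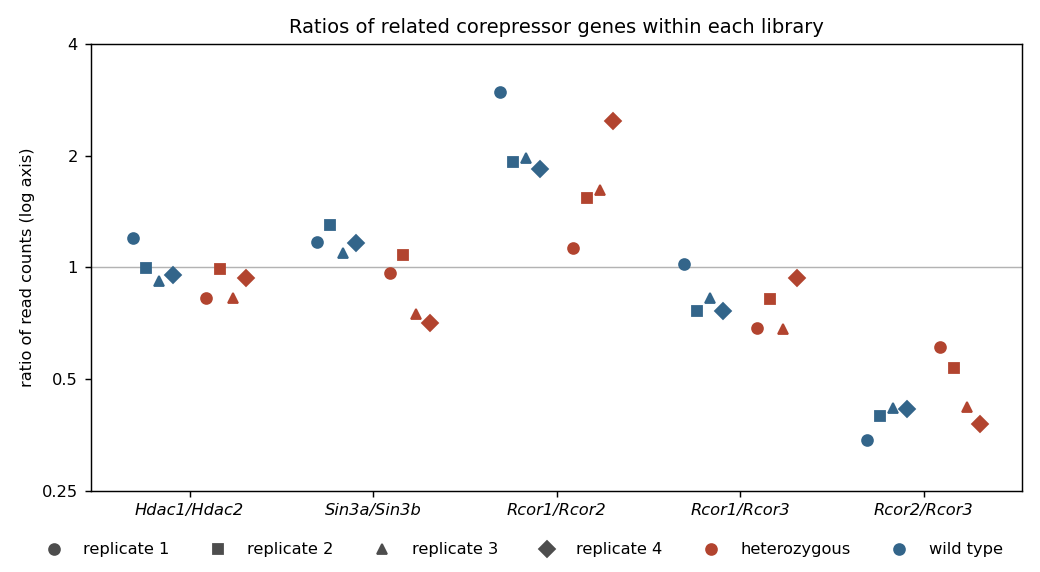
Ratio of read counts of related corepressor genes within each library (y axis, log scale), with wild-type libraries in blue and heterozygous ones in red. The Sin3a to Sin3b ratio is the 1 of 5 in which the groups do not overlap, at 0.709 to 1.08 against 1.09 to 1.30.

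To compare levels between genes, counts were divided by length and scaled to the same total in each library (TPM). With the union of all annotated exons as length, Hdac1 had the highest level, at 163 ± 10.9 TPM in heterozygous and 169 ± 12.1 in wild-type libraries (SD, n = 4 each). Hdac2 followed at 140.3 ± 6.80 and 128 ± 7.17, below Hdac1 in all 8 libraries although their ranges overlapped. Kdm1a was at 65.5 ± 18.8 and 70.8 ± 7.79, and Rest at 58.2 ± 1.99 and 55.2 ± 4.54 TPM. With this length these neighbours were not separated, since Kdm1a exceeded Rest in 6 of 8 libraries. With the longest transcript as length Kdm1a exceeded Rest in 8 of 8, without overlap.

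Sin3a was at 27.5 ± 4.86 TPM in heterozygous and 34.2 ± 1.39 in wild-type libraries. Ehmt2 had 30.3 ± 2.43 and 28.2 ± 4.47 TPM, and the 2 genes changed places between libraries. Sin3b, at 23.1 ± 0.605 and 21.3 ± 1.58 TPM, was below Ehmt2 in all 8. The 3 Rcor genes were lowest, at 7.86 ± 0.846 and 9.23 ± 0.851 for Rcor1, 8.89 ± 2.19 and 7.81 ± 1.09 for Rcor2 and 4.22 ± 0.245 and 4.6 ± 0.255 TPM for Rcor3. The Rest message was thus several times as abundant per length as that of any CoREST gene. The place of Rcor3 within its family is uncertain. Its annotated exons sum to 13622 bases, mostly outside its longest transcript of 3791 bases, and with the latter as length it had 11.4 ± 0.662 and 12.5 ± 0.687 TPM, above Rcor1 and Rcor2 in all 8 libraries. With that length Sin3b lay above Sin3a in 7 of 8 libraries, and Ehmt2 above Sin3b in 4 of 8.

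**Figure D4:**
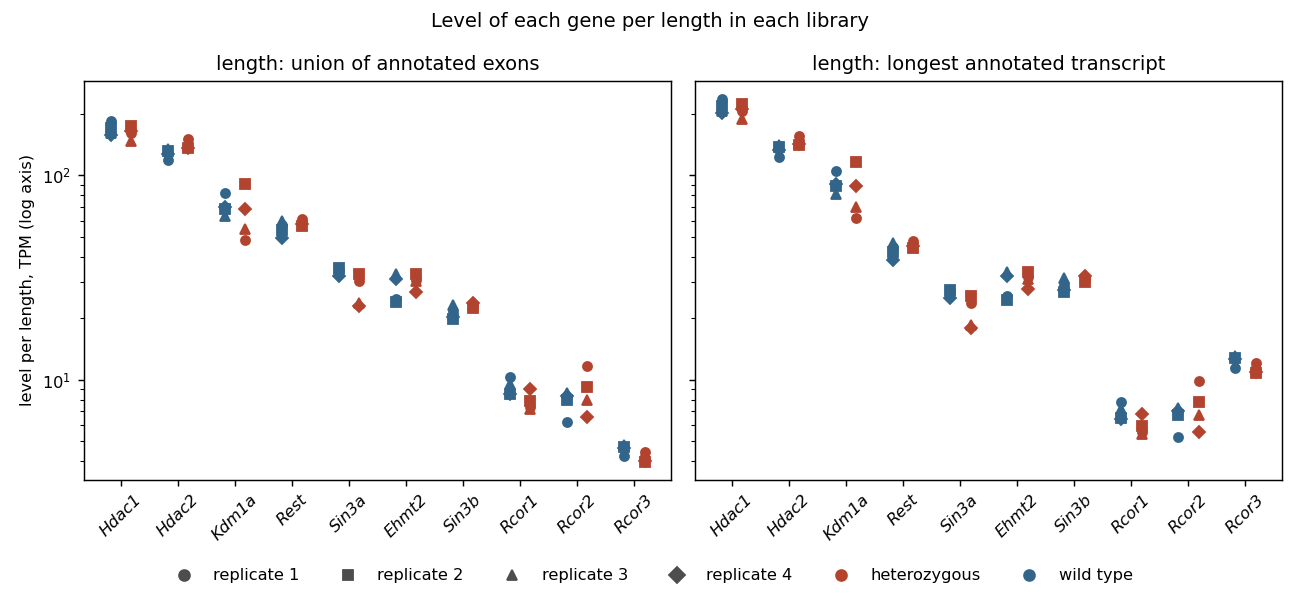
Level per length (TPM, log axis) of each gene in each library, computed with the union of annotated exons (left) and with the longest annotated transcript (right). Hdac1 is highest on both sides, while Rcor3 moves from a mean of 4.6 to 12.5 TPM in wild type and Sin3a falls below Sin3b.

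Across the 8 libraries, 11627 genes with a mean of at least 5 CPM were ranked by the Pearson correlation of their log2 CPM with that of Rest. The 3 most alike were Traf7 (r = 0.96), Tbc1d8 (0.95) and Tmem127 (0.94). These are descriptions over 8 points that share library scaling and genotype, with many genes searched. Among the corepressor genes r ran from -0.51 for Rcor3 to 0.80 for Sin3b, with Hdac2 at 0.57.

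The remaining genes of the pathway were examined by role, in 8 lists that hold 113 tested genes. None passed the threshold with edgeR. At an unadjusted p under 0.05 there were 6 lower and 11 higher, 15% of the 113 beside 13.4% of all genes tested. By direction 7.92% of all genes tested were lower and 5.46% higher, which stands beside each list below. DESeq2 counted 23 without adjustment, 20.4% of the 113 beside 13.2% of its genes. Of these, 5 were SIN3 subunits, 4 NuRD and NCoR genes, 4 splicing regulators, 3 Polycomb genes and 3 turnover genes. The groups did not overlap for 10 of the 113, beside 7.88% of all genes. The median log2 change was 0.04, against -0.0027 over all genes. DESeq2 called 4, beside 2.68% of all genes it tested: Ogt and Srrm3 as lower and Suds3 and U2af1 as higher. Of these U2af1, a splicing factor gene named after its values were seen, was at 102 CPM on average in heterozygous and 83.3 CPM in wild-type libraries (adjusted p = 0.134 by edgeR and 0.0335 by DESeq2).

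Of 12 partners of CoREST and KDM1A, none passed (1 lower and 2 higher at an unadjusted p under 0.05; DESeq2 called 0). The corepressor gene Ctbp1 was at 160.3, 108, 126 and 41.6 CPM against 31.7, 30.7, 78.9 and 82.5 CPM. Its libraries differed widely within both groups, heterozygous replicate 4 lay among the wild-type values, and the log2 change of 0.96 ± 0.42 (SE) did not pass (edgeR adjusted p = 0.357).

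Of 18 other SIN3 complex subunits, none passed with edgeR (2 lower and 2 higher at an unadjusted p under 0.05). The histone chaperone gene Rbbp4, a subunit of several deacetylase complexes, was at 442 ± 39.7 and 432 ± 12 CPM (mean ± SD over 4). Ogt, which encodes the enzyme that adds N-acetylglucosamine to nuclear proteins and associates with SIN3A, was at 369, 315, 229.8 and 283 CPM against 452, 422, 374 and 384 CPM. All heterozygous libraries were below all wild-type ones (beside 4.89% of all genes tested), and the log2 change was -0.45 ± 0.13 (SE, adjusted p = 0.175 by edgeR and 0.0456 by DESeq2). Suds3, a subunit that binds SIN3 proteins directly, was at 51.8, 40.1, 39.6 and 23.0 CPM against 25.0, 22.2, 26.6 and 25.0 CPM. Heterozygous replicate 4 was among the wild-type libraries and the other 3 were above them. The adjusted p of Suds3 was 0.191 by edgeR and 0.0369 by DESeq2, and without that library edgeR's was 0.0131. That library was the only heterozygous one that overlapped, so the p without it depends on this choice and supports nothing. Suds3 was named after its values were seen.

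Of 15 genes of histone H3 methylation, none passed (0 lower and 1 higher at an unadjusted p under 0.05; DESeq2 called 0). Cbx5, which encodes a heterochromatin protein that binds methylated histone H3, was at 1653 ± 159 and 1530 ± 123 CPM. The demethylase gene Kdm5b was at 582 ± 80.4 and 454 ± 53.3 CPM, with an adjusted p of 0.212 by edgeR. Of 16 NuRD, NCoR and other deacetylase genes, none passed (1 lower and 2 higher unadjusted; DESeq2 called 0), with the remodeller gene Chd4 at 231 ± 54.7 and 231 ± 35.1 CPM and Mta2 at 205 ± 4.93 and 188 ± 15.7 CPM.

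Other cofactors that REST recruits gave 0 of 12 past the threshold (0 lower and 1 higher unadjusted; DESeq2 called 0). The chromatin remodelling subunit gene Smarce1 was at 202 ± 6.34 and 191 ± 4.83 CPM, and the arginine methyltransferase gene Prmt5 at 174 ± 8.18 and 169 ± 6.51 CPM. Genes of REST protein turnover and transport gave 0 of 16 (0 lower and 1 higher unadjusted; DESeq2 called 0). Skp1a, a subunit of the ubiquitin ligase that marks REST for destruction, was at 1402 ± 108 and 1344 ± 79.7 CPM, and the kinase gene Csnk1a1 at 354 ± 32.5 and 353 ± 5.14 CPM. Polycomb genes gave 0 of 14 with 0 at an unadjusted p under 0.05 (DESeq2 called 0, and 3 unadjusted), with Rnf2 at 197 ± 14.8 and 198 ± 8.43 CPM and Jarid2 at 200.6 ± 13.9 and 180.4 ± 6.23 CPM. These values are mean ± SD over 4 heterozygous and 4 wild-type libraries.

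Splicing regulators of the Rest exon and of neuronal exons gave 0 of 10 past the threshold with edgeR. At an unadjusted p under 0.05, 2 were lower and 2 higher (beside 7.92% and 5.46% of all genes tested). The abundant regulators Hnrnpa1 and Ptbp1 were at 854 ± 112 and 212.5 ± 32.2 CPM in heterozygous against 761 ± 81.4 and 218 ± 9.51 CPM in the wild type (mean ± SD over 4). Srrm4, which promotes inclusion of the Rest exon, was at 12.7, 11.3, 11.02 and 9.66 CPM against 15.56, 10.9, 14.1 and 15.7 CPM. Wild-type replicate 2 lay among the heterozygous libraries (edgeR adjusted p = 0.356). Its relative Srrm3, named after its values were seen, was at 0.171 to 0.478 CPM against 0.924 to 1.496 CPM (adjusted p = 0.0515 by edgeR and 0.00859 by DESeq2).

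The textbook targets are the genes REST is known to silence. Of 23 tested textbook targets of REST, 9 fell and 0 rose, with a median log2 change of -0.88. Among all genes tested 1.02% were lower. The list was chosen with earlier results of these data known, so its contrast with all genes is a description and supports nothing. The values of all 23 were negative in the main fit. That of Scg2 was only -0.01, and it turned positive with DESeq2 and in several edgeR alternatives, among them those without wild-type replicate 1 or 2. Several of the targets that did not pass rested on wild-type replicate 3, which stood apart in neuronal genes. Stmn2 was at 42.7 CPM there against 11.1, 7.67 and 5.72 CPM in wild-type replicates 1, 2 and 4, and Tubb3 at 61.9 against 18.6, 15.57 and 13.8 CPM. Without that library 18 of 23 were negative, Stmn2, Tubb3, L1cam, Gria2 and Calb1 were not, the median was -0.57, and 8 targets passed as lower. Of the 10 genes described here and the 113 other pathway genes, 0 passed by the same test. The 4 targets with the smallest adjusted p were Scn3b, Chga, Nefm and Scg3, at 3.58 ± 0.239, 2.44 ± 0.823, 100.4 ± 3.31 and 0.901 ± 0.393 CPM in heterozygous libraries and 20.4 ± 1.63, 30.5 ± 6.03, 254 ± 27.1 and 19.6 ± 3.19 CPM in the wild type. Of the genes whose RE1 letters are shown above, Celsr3 was at 0.615 ± 0.306 and 1.38 ± 0.30 CPM (edgeR adjusted p = 0.230) and Scg2 at 18.3 ± 2.70 and 18.5 ± 5.34 CPM (edgeR adjusted p = 0.990).

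**Figure D5:**
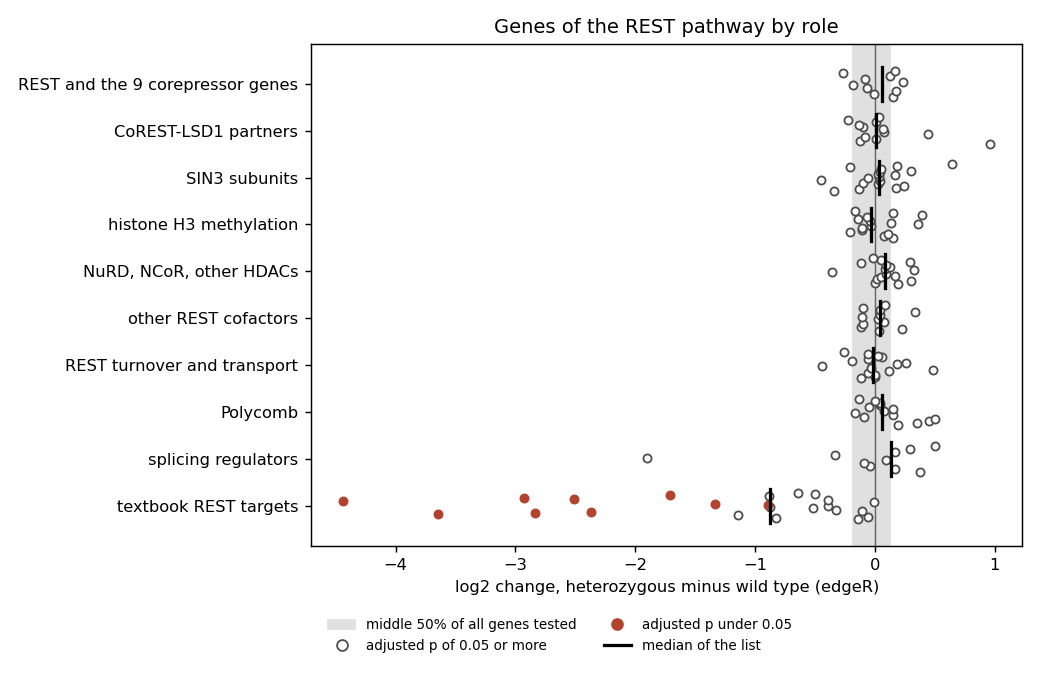
Log2 change (heterozygous minus wild type, x axis) of each tested gene of REST and its pathway, by role (y axis). Red points passed an adjusted p of 0.05, black bars are list medians and the grey band is the middle 50% of all genes tested. The 9 red points are all textbook targets, whose median is -0.88, while the medians of the other lists lie between -0.03 and 0.13.

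Several measures of the libraries separated with genotype as well. Read pairs on genes numbered 20365225 to 24557189 and overlapped. The share of read pairs outside genes was 11.9% to 18.3% in heterozygous and 18.4% to 22.2% in wild-type libraries, and the number of genes detected was 23408 to 23989 against 24265 to 24687. Hair cell markers (8 of 8 tested, 1 lower, beside 1.02% of all genes tested) and supporting cell markers (9 of 9) were present in every library. The hair cell markers summed to 589 to 734 against 727 to 835 CPM. The supporting cell markers summed to 3062 to 3764 against 3060 to 3853 CPM. Neuron markers (12 of 12 tested, 2 lower, beside the same 1.02%) summed to 397 to 465 CPM in heterozygous and 578 to 853 CPM in wild-type libraries. However, 4 of these neuron markers (Tubb3, Nefl, Nefm and Stmn2) are also on the target list. The 2 lower ones, Nefl and Nefm, are among those 4. Nefm alone was at 100.4 CPM on average in heterozygous and 254 CPM in wild-type libraries. Of the 12 neuron markers, 7 had negative and 5 had positive log2 changes. The sum without the shared genes was not computed, so the separation of the sums is not shown for the other neuron markers. Proliferation markers (8 of 8) summed to 959 to 1104 and 937 to 1076 CPM. Schwann cell (5 of 6) and mesenchyme markers (7 of 7) summed to 564 to 719 against 517 to 601 and 1737 to 2530 against 2021 to 2242 CPM. Erythroid markers (6 of 6) summed to 6324 CPM in wild-type replicate 4, to 494 to 591 CPM in wild-type replicates 1 to 3 and to 502 to 767 CPM in the heterozygous libraries. The part of these measures in the small differences of Rest, Sin3b, Hdac2 and Sin3a was not tested.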

How the data were processed

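Total RNA of pooled utricles was copied into cDNA with an oligo-dT primer, tagmented and sequenced in pairs, per the labels' protocols. Nothing states that the pools of 1 group came from separate litters, so p-values measure the spread between these pools. The authors deposited 1 file of gene counts per library, whole read pairs per gene without normalization. Reads were aligned with STAR 2.5.2a to GRCm38.p4, and DESeq2 was named without a version, per the submitters' processing notes. Multimapping reads belong to no gene in these files, so reads that fit both Hdac1 and its processed pseudogene Gm10093 (itself counted at 24 to 38 read pairs per library) are in neither count. The protocol marks no strand: the first strand-specific column held 53.2% to 53.4% of the unstranded one, which was used. Kdm1a overlaps Luzp1 on the opposite strand. Lines that name no gene held 25.2% to 33.9% of read pairs and were left out. The authors also deposited a normalized signal, gene counts divided by 1 size factor per library, for 7 libraries. From it 100% of values were recovered as whole reads (tolerance 0.001), equal to the counts; edgeR called 129 genes on them.

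Counts were filtered with filterByExpr (minimum count 10, total 15), scaled by TMM and compared with edgeR 4.0.16 (R 4.3.3), with Benjamini-Hochberg adjustment over 16990 genes. The standard error is the log2 change over the square root of F. Exact permutation tests used 70 assignments with all 8 libraries and 35 with 7 libraries. The fit was tested on simulated counts with 200 genes changed. It recovered 28.5% of them at a 1.5-fold change, 69.5% at 2-fold and 94% at 4-fold. Changes below 1.5-fold were not simulated, so genes that did not pass are not shown to be unchanged. GENCODE M21 gave positions and lengths. The 10 genes, the lists and the naming rule (the 10 genes, the 2 most abundant or up to 4 passing genes per list, Srrm4, and the 3 genes most like Rest) were chosen with earlier results of these data known. A gene that the rule names is not reported here. Alternatives were DESeq2 1.42.0, other scalings, no filter, 1 strand column, a replicate block, single libraries left out and, chosen after seeing the data, the recovered reads, which are the counts without wild-type replicate 4.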

Additional observations from a re-analysis of the deposited data

Results flagged for a closer look

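In 2 of 72 groups of 4 libraries examined, 1 library stood far from the other 3 by Dixon's criterion. Chance flags about 1 in 20 groups, so this is no more than chance gives. Rest was at 131.7 CPM in heterozygous replicate 1, with the other 3 heterozygous libraries between 125 and 126 CPM. The ratio of Rcor1 to Rcor2 was 2.98 in wild-type replicate 1, with 1.84 to 1.97 in the other wild-type libraries.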

How the results depend on the processing

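None of the 10 genes passed the threshold in any of the 15 alternative fits, with adjusted p from 0.142 (Sin3a without heterozygous replicate 2) to 0.998. The recovered reads and the fit without wild-type replicate 4 hold the same libraries and share all 129 calls. They are counted separately among the 15 although they repeat each other. Direction was kept in all 15 by 8 genes. Hdac1 turned to 0.0016 with DESeq2, 0.012 without the filter and a range of -0.045 to 0.0496 with single libraries left out (above 0 without heterozygous replicate 3 or wild-type replicate 1 or 2). Kdm1a ranged from -0.252 to 0.0603 there. Over all genes, 173 lower and 25 higher became 388 and 156 with DESeq2, 80 and 16 with the replicate block, 112 lower on the recovered reads, and 105 to 140 and 12 to 28 with single libraries left out (105 to 114 lower without 1 wild-type library or heterozygous replicate 3 or 4, and 12 to 15 higher without heterozygous replicate 1 or wild-type replicate 1 or 3). The pathway lists went from 0 to 4 genes with DESeq2, 1 without scaling factors and 1 on the first strand-specific column, a count added after seeing the data (Srrm3 both times), and 0 to 1 with single libraries left out (Suds3, without heterozygous replicate 4). The count of lower textbook targets was 6 (replicate block) to 9. With single libraries left out the log2 ratio differences ranged from -0.56 to -0.36 (Sin3a to Sin3b), -0.60 to -0.22 (Rcor1 to Rcor2), 0.17 to 0.40 (Rcor2 to Rcor3), -0.20 to -0.013 (Rcor1 to Rcor3; nearest 0 without wild-type replicate 1) and -0.23 to -0.10 (Hdac1 to Hdac2; likewise). Apart from the fewer samples, the causes were not tested.

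Replicate numbers are shared between genotypes, but same-numbered libraries did not deviate together (correlations 0.024, -0.098, 0.032 and -0.094), so they were not taken as pairs. With the replicate block 0 of the 10 genes passed, and the Sin3a to Sin3b difference of -0.45 had an exact sign-flip permutation p of 0.125, the smallest that 4 pairs allow. The counts were lowest for Rcor2, at 136 to 258 read pairs.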
